A study of Drosophila melanogaster with 9 samples.

Results

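The genes described here are the head, gap and tail patterning genes of Drosophila melanogaster, 10 transcription factor genes chosen by symbol from the 14797 genes of the deposited expression table. All 10 were found. They are the head genes oc, ems and btd, the posterior gene cad, the trunk gap genes hb, Kr, gt and kni, and the terminal genes tll and hkb. RNA was sequenced from Kc167 cells, an embryonic Drosophila line with blood cell features, in 9 libraries of 3 groups. All cultures were given dsRNA at 15 µg for a set number of cells in serum-free medium, serum was returned after an incubation, and RNA was taken on day 7. The control group (3 libraries) received a control dsRNA, of which the labels name no target. The second group (3 libraries) received dsRNA against ph and E(z), and the third (3 libraries, called CtBP-treated below) against ph, E(z) and CtBP. A group with CtBP dsRNA alone was not analysed here, so the addition of CtBP RNAi is seen only in cells already treated against ph and E(z).

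In the early embryo these genes divide the body axis into broad domains. Maternal gradients and the Torso receptor switch them on, they repress and activate one another, and they pass position on to the pair-rule and homeotic genes. Polycomb group proteins later hold many developmental transcription factor genes silent. Polyhomeotic (ph) belongs to Polycomb repressive complex 1, and E(z) is the methyltransferase of complex 2. CtBP is a corepressor that the Krüppel, Knirps and Giant proteins recruit in the embryo. None of the 10 genes is a classical hemocyte marker.

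By location in the dm6 annotation, 3 of the genes are on X, 1 on 2L, 1 on 2R, 1 on 3L and 4 on 3R. By protein class, oc, ems and cad encode homeodomain proteins, btd, hkb, hb and Kr zinc finger proteins, tll and kni proteins of the nuclear receptor family, and gt a bZIP protein.

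Levels are in FPKM, the fragments per kilobase of transcript scaled to library size, as deposited. Low FPKM values of a gene stepped in whole multiples, so that the number of fragments behind a value could be recovered for 8 of the 10 genes (values within 0.02 of a whole number). The FPKM worth of 1 fragment, relative to control replicate 3, was between 0.924 and 1.09 in the 9 libraries, so that relative depth was close to equal. FPKM summed to between 725406 and 908290 per library. The labels do not say whether the replicates are separate cultures. For genes of 200 to 1000 estimated fragments, control replicates 2 and 3 differed with 1.31 times the variance of counting error, and ph+E(z) replicates 2 and 3 with 1.5 times. The remaining pairs of treated libraries within a group differed with 2.36 to 8.36 times that variance. The library labelled control replicate 1 differed from both other control libraries with 53.0 and 53.8 times, so that it stood apart across the genes measured. Each p therefore measures the spread between these libraries, which may be technical. Of 10 hemocyte markers in the table, 10 measured 0.5 FPKM or more in at least 3 libraries, treated ones included. So did 8853 of all 14797 genes, so this minimum alone does not mark a cell type. In the library labelled control replicate 1 Hml held 8.06 FPKM, against 173 and 164 in the other control libraries. There eater held 0.0991 FPKM against 7.60 and 6.93, whereas Pxn held 44.5 against 40.6 and 39.5. Neuron, muscle, germline and gut or fat body markers are given beside the results below.

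The knockdown targets were checked in each library. In control cells E(z) measured 43.4, 37.4 and 31.2 FPKM, against 12.1, 8.81 and 8.29 after ph+E(z) RNAi and 9.85, 8.93 and 9.68 in the CtBP-treated libraries. CtBP lay between 189 and 221 FPKM in the 6 libraries not treated against it and at 49.0, 41.8 and 65.8 in the others. For ph-p, the library labelled control replicate 1 went against its label: it held 4.64 FPKM, below the 6 treated libraries at 7.15 to 10.3 FPKM, where the other control libraries held 18.9 and 18.1. Its level of the paralog ph-d, 1.26 FPKM, was also below the treated libraries at 3.73 to 4.99 FPKM. The other control libraries held 5.72 and 4.87 FPKM of ph-d. Results are therefore also given without the library labelled control replicate 1. In the limma fit described below, neither ph-p nor ph-d was called in either comparison with control (adjusted p from 0.483 to 0.708). That fit includes the library labelled control replicate 1, and for these genes no fit without it is given. E(z) was called lower with ph+E(z) RNAi in that fit (adjusted p = 0.0011). In bulk RNA, more RNA per cell and more cells with the RNA cannot be told apart.

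The ph+E(z) libraries were set against the control libraries. This asks whether patterning genes of the early embryo gain RNA after RNAi against Polycomb genes of both complexes in a blood cell line. The 3 head genes were at or below 0.158 FPKM in control cells and the posterior gene cad at or below 1.06 FPKM, and every ph+E(z) library lay above every control library for each of them. Of the trunk gap genes Kr separated the groups in the same way, at no more than 0.697 FPKM. The terminal genes and the other trunk gap genes stayed at or near 0. In all, 4 of the 10 genes (oc, cad, btd and ems) reached the minimum for testing, 0.5 FPKM in at least 3 of the 9 libraries, and 3 of these, oc, cad and btd, rose. Across all 8853 tested genes 2.58% were called higher, 1.34% lower and 3.92% in either direction. The 4 tested genes reached the minimum only through treated libraries, apart from cad in 1 control library, and so could hardly have fallen. Their count is given as a description. The minimum fell between ems, at or above it in 5 libraries, and Kr, at or above it in 2. Log2 differences are on the scale of log2(FPKM + 0.5), which understates the change of genes near 0, and adjusted p values are from limma with Benjamini-Hochberg adjustment over all tested genes.

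Of the head genes, oc encodes Orthodenticle, a homeodomain protein required for the anterior head and later for the ocelli. The gene, FBgn0004102, lies on the minus strand of chromosome X at 8630159 to 8650681 (dm6), with 6 annotated transcripts of 4 exons each. It measured 0.0635, 0.158 and 0.0687 FPKM in control replicates 1, 2 and 3, which is 3, 7 and 3 fragments. The ph+E(z) libraries held 19.1, 36.3 and 36.0 FPKM, or 804, 1581 and 1568 fragments. Every treated library was far above every control library, and the lowest treated value was 120 times the highest control value. The ratio of group means was 314, and the log2 difference was 5.64 ± 0.30 (SE, adjusted p = 0.000154), the 6th largest rise of the 8853 genes. It was 5.60 without the library labelled control replicate 1 (adjusted p = 0.000248).

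The gene btd encodes Buttonhead, an Sp-family zinc finger protein of the head segments. It is FBgn0000233, on the plus strand of X at 9694186 to 9697558, with 1 transcript of 2 exons. Control replicate 2 held 1 fragment of btd, 0.0391 FPKM, and the other 2 control libraries were listed at 0. After ph+E(z) RNAi btd measured 1.52, 2.62 and 3.41 FPKM, or 37, 66 and 86 fragments, all above the control libraries. The log2 difference was 2.50 ± 0.40 (adjusted p = 0.0126), and 2.49 without the library labelled control replicate 1 (adjusted p = 0.0196). Leaving out ph+E(z) replicate 2 or 3 ended the btd call, at adjusted p = 0.0694 and 0.0676.

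The gene ems encodes the homeodomain protein Empty spiracles, which acts in head segments and in the posterior spiracles. It is FBgn0000576, on the plus strand of 3R at 13901853 to 13904620, with 1 transcript of 2 exons. Its control values were 0, 0 and 0.0478 FPKM, a single fragment in all. In the ph+E(z) libraries ems stood at 0.644, 1.15 and 0.671 FPKM, or 13, 24 and 14 fragments. The groups did not overlap, but the log2 difference of 1.34 ± 0.32 did not pass (adjusted p = 0.0622, 95% interval 0.60 to 2.07). It passed in 4 of 18 alternatives. These were a pseudocount of 0.1 FPKM, where the difference was 2.97 (adjusted p = 0.0197), and the loss of CtBP-treated replicate 3 (adjusted p = 0.0245). The others were a fit of only these 2 groups (adjusted p = 0.0465) and a fit without the mean-variance trend (adjusted p = 0.0468).

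The posterior gene cad encodes Caudal, a homeodomain protein of the ParaHox class that specifies the tail region and, in the adult, is active in the gut. It is FBgn0000251, on the plus strand of 2L at 20770731 to 20783135, with 3 transcripts. The cad gene was the only one of the 10 above 0.4 FPKM in control cells, at 0.446, 1.06 and 0.422 FPKM. In the ph+E(z) libraries cad stood at 29.3, 51.9 and 55.2 FPKM. The lowest treated value was 27.6 times the highest control value, so that the groups were far apart. From 0.643 ± 0.362 FPKM (SD, n = 3) it reached 45.5 ± 14.1 (n = 3), a log2 difference of 5.32 ± 0.31 (adjusted p = 0.000154), and 5.21 without the library labelled control replicate 1 (adjusted p = 0.000288). This was the 7th largest rise of all tested genes. In the ph+E(z) libraries cad stood above 75.5% to 86.0% of all genes in the table by FPKM and oc above 68.1% to 79.1%, against at most 46.3% and 35.9% in control libraries.

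**Figure D1:**
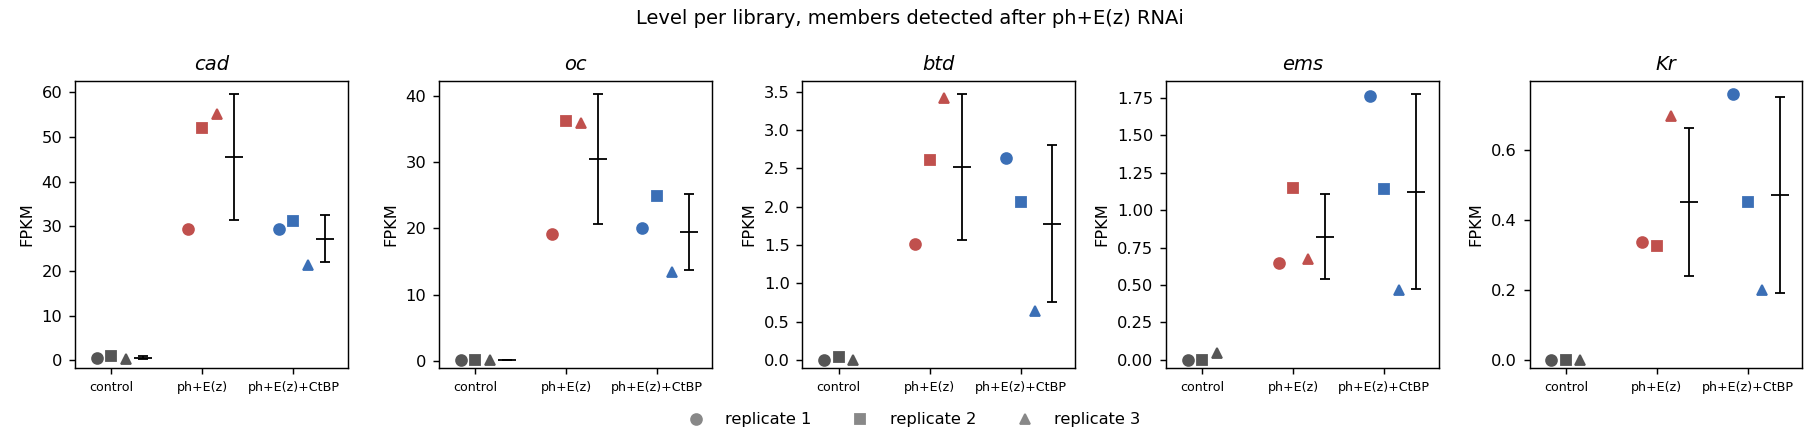
FPKM (y axis, a separate linear scale for each gene) of cad, oc, btd, ems and Kr in each of 3 control, 3 ph+E(z) RNAi and 3 ph+E(z)+CtBP RNAi libraries, with the replicate number shown by the marker and, where no library of the group is at 0, the mean and SD (bars). All 6 treated libraries lie above the 3 control libraries for each of the 5 genes, and the treated groups overlap.

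Among the trunk gap genes, Kr was the one that separated the groups. It encodes the zinc finger repressor Krüppel of the central embryo and is FBgn0001325, on the plus strand of 2R at 25226611 to 25231394. Kr was listed at 0 in all 3 control libraries, where a count of 0 allows up to 3 fragments, or 0.139 FPKM at the depth of control replicate 3. The ph+E(z) libraries held 0.336, 0.325 and 0.697 FPKM, or 7, 7 and 15 fragments. All treated libraries were above the control libraries, but Kr was below the minimum for testing. An exact two-sided permutation test of 3 against 3 libraries gave p = 0.10, the smallest p it allows, and without a minimum on FPKM the adjusted p was 0.147. The annotated gene CG9380 overlaps Kr, and since no source states strand, their reads may be mixed. CG9380 itself reached at most 0.0876 FPKM.

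The other trunk gap genes gave few fragments in any library. The nuclear receptor family gene kni (Knirps, FBgn0001320, minus strand of 3L at 20692330 to 20695378) had 3, 1 and 2 fragments in the control libraries, or 0.160, 0.0571 and 0.115 FPKM, and 2, 1 and 0 after ph+E(z) RNAi. The bZIP repressor gene gt (Giant, FBgn0001150, minus strand of X at 2427113 to 2428967) had 2, 3 and 1 fragments in the control libraries, or 0.127, 0.204 and 0.0688 FPKM, and 1, 3 and 2 after ph+E(z) RNAi. These 2 genes were thus as detectable in control cells as in treated ones. The zinc finger gene hb (Hunchback, FBgn0001180, minus strand of 3R at 8690980 to 8697822) was listed at 0 in all control libraries and had 1 fragment, 0.0389 FPKM, in ph+E(z) replicate 3. Exact two-sided permutation tests gave p = 0.50 for kni and p = 0.70 for gt, where 0.10 is the smallest possible. For hb such a test could not show a difference, because only 1 control or ph+E(z) library held a value above 0. Every split of those libraries into groups then gives the same absolute difference. At this depth a change of a few fragments in these genes was not detectable.

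Of the terminal genes, hkb encodes the zinc finger repressor Huckebein of both embryonic poles and is FBgn0261434, on the minus strand of 3R at 4345015 to 4346646. It had 1 fragment in control replicate 3 and 1 in ph+E(z) replicate 1, at 0.0789 and 0.0818 FPKM, and was listed at 0 in the other libraries of those groups (exact two-sided permutation p = 1.0). The orphan nuclear receptor gene tll (Tailless), FBgn0003720 on the plus strand of 3R at 30852315 to 30854400, was listed at 0 in all 9 libraries. A listed 0 can be a failed estimate in this table, since rl, which encodes the MAP kinase of the Ras pathway, was also listed at 0 in all 9.

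**Figure D2:**
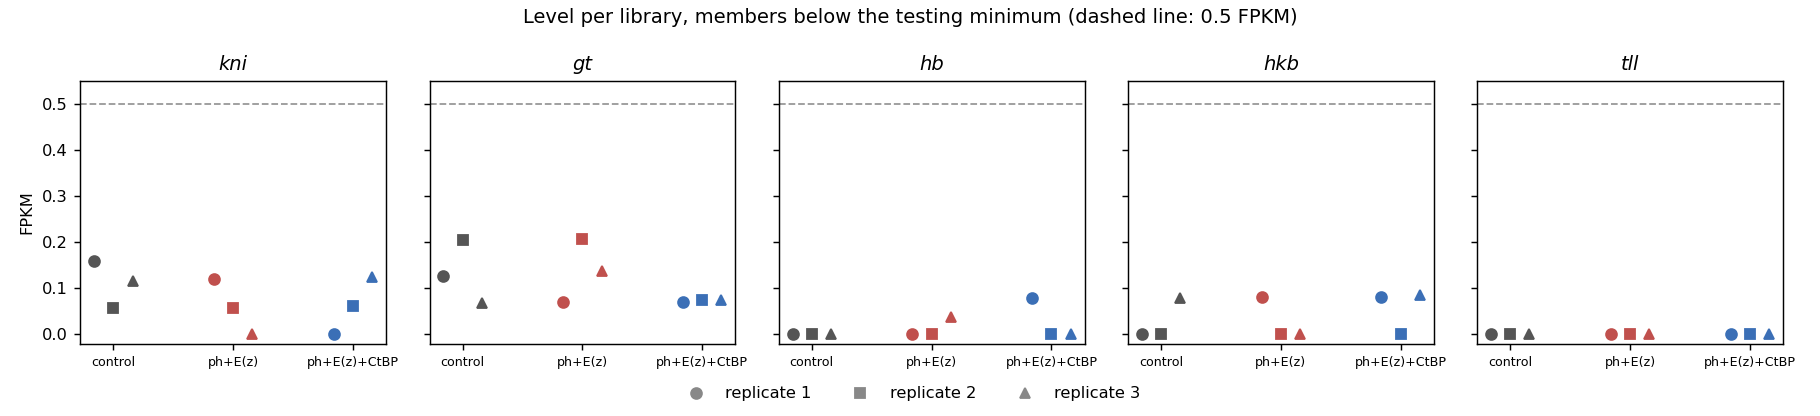
FPKM (y axis, shared linear scale) of kni, gt, hb, hkb and tll in each library, by group, with the replicate number shown by the marker. The dashed line marks the 0.5 FPKM minimum for testing, which no library reaches for these genes, and the groups overlap for each gene.

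By position in the embryo, treated libraries lay wholly above control libraries for 3 of 3 head genes, 1 of 1 posterior genes, 1 of 4 trunk gap genes and 0 of 2 terminal genes. By protein class the counts were 3 of 3 homeodomain genes, 2 of 4 zinc finger genes, 0 of 2 nuclear receptor family genes and 0 of 1 bZIP genes. Among all tested genes, 13.8% had ph+E(z) libraries wholly above control libraries, 12.9% wholly below and 26.7% either. The order of levels after ph+E(z) RNAi was cad, oc, btd, ems, Kr. FPKM of cad was above that of oc within each of the 9 libraries, although the ranges of the 2 genes over the ph+E(z) libraries, 29.3 to 55.2 and 19.1 to 36.3, overlapped. The range of btd, 1.52 to 3.41 FPKM, overlapped neither that of oc nor that of ems. The ranges of ems, 0.644 to 1.15, and Kr, 0.325 to 0.697, did overlap.

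The CtBP-treated libraries were next set against the ph+E(z) libraries, to ask whether the raised genes keep their level when CtBP is reduced too, the setting in which the series title assigns CtBP an activating role on HOX genes. None of the 4 tested genes passed, and for none of the 10 were the groups separate. Across all tested genes 1.94% were called higher, 1.77% lower and 3.72% in either direction, and 31.2% had groups that did not overlap (15.1% higher, 16% lower). In the CtBP-treated libraries oc measured 20.0, 24.9 and 13.4 FPKM, which is 852, 1000 and 542 fragments. Replicates 1 and 2 of this group lay within the range of the ph+E(z) libraries and replicate 3 below it. The group mean was 63.8% of that with ph+E(z) RNAi, and the log2 difference was -0.62 ± 0.30 (adjusted p = 0.414, 95% interval -1.31 to 0.07).

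The cad gene measured 29.5, 31.1 and 21.3 FPKM in the CtBP-treated libraries, a mean of 60.0% of that with ph+E(z) RNAi. Replicates 1 and 2 lay just above the lowest ph+E(z) library and replicate 3 below it. The log2 difference was -0.69 ± 0.31 (adjusted p = 0.349, 95% interval -1.39 to 0.01). The authors' deposited table gives q = 0.00499 for cad and q = 0.0211 for oc in this comparison, so that their method called both genes where limma did not. In the authors' deposited table the q-values of btd and ems are 0.339 and 0.589. For ph+E(z) against control, the authors' deposited table gives q = 0.00102 for both oc and cad, q = 0.471 for btd, and no test for ems.

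The remaining detected genes had lower levels. The btd gene measured 2.64, 2.06 and 0.643 FPKM (65, 48 and 15 fragments), with replicate 3 below every ph+E(z) library. Its log2 difference was -0.47 ± 0.40 (adjusted p = 0.704, 95% interval -1.38 to 0.43). The ems gene measured 1.76, 1.14 and 0.466 FPKM (36, 22 and 9 fragments), a log2 difference of 0.23 ± 0.32 (adjusted p = 0.863, 95% interval -0.50 to 0.97), and its direction turned to -0.048 when CtBP-treated replicate 1 was left out. Kr measured 0.760, 0.453 and 0.201 FPKM (16, 9 and 4 fragments; exact two-sided permutation p = 1.0). In the same libraries gt had 1, 1 and 1 fragments, kni 0, 1 and 2, hkb 1, 0 and 1 and hb 2, 0 and 0. The intervals of the 4 tested genes include both no difference and, for oc, cad and btd, a fall of more than 1 on the log2 scale. That fit shares 1 spread over 3 groups, and the control libraries are near 0. In a fit of the treated groups alone the adjusted p was 0.271 for oc, 0.162 for cad, 0.545 for btd and 0.727 for ems.

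CtBP-treated replicate 3 was the lowest of its group for each of oc, cad, btd, ems and Kr. It also held the most CtBP RNA of that group, 65.8 FPKM, and the most ph-p RNA, 10.3 FPKM against 7.22 and 7.25. Its E(z) RNA, 9.68 FPKM, lay between the 9.85 and 8.93 FPKM of the other libraries of that group. In the ph+E(z) group replicate 1 was the lowest for oc, cad, btd and ems. It held the most E(z) RNA of its group, 12.1 FPKM against 8.81 and 8.29. It also held the least ph-p RNA of its group, 7.15 FPKM against 8.02 and 7.28. The part of these target levels in the results was not tested.

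**Figure D3:**
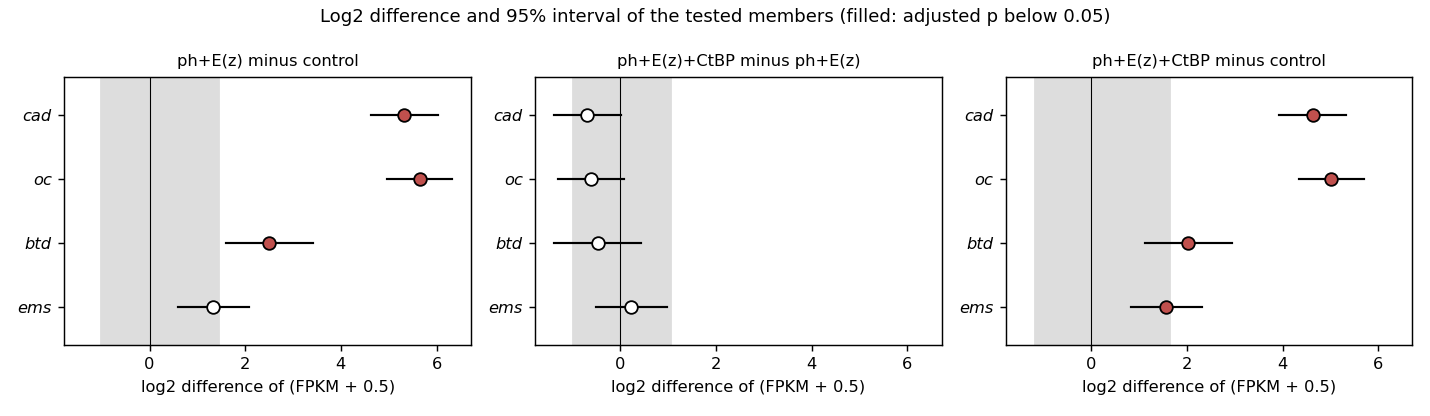
Log2 difference of (FPKM + 0.5) for the 4 tested genes in each comparison (x axis), with the limma estimate as a point, its 95% interval as a line, and filled points for an adjusted p below 0.05. Grey spans hold the central 95% of all 8853 tested genes, from -1.01 to 1.46, -0.99 to 1.05 and -1.18 to 1.66; oc and cad lie beyond them in the 2 comparisons with control and inside them when CtBP RNAi is added.

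Against the control libraries, the CtBP-treated libraries show what level remains with RNAi against all 3 targets. All 4 tested genes were called higher, where 5.58% of all tested genes were higher, 4.15% lower and 9.73% either. For these 4 and for Kr the CtBP-treated libraries lay wholly above, which held for 18.4% of tested genes (17.9% wholly below, 36.3% either). Kr was not itself among the tested genes. This comparison shares the control libraries with the first and the treated libraries with the second, so its calls are not independent of theirs. The log2 difference of oc was 5.02 ± 0.30 (adjusted p = 0.000143), the 4th largest rise, and that of cad 4.63 ± 0.31 (adjusted p = 0.000175), the 8th largest. Without the library labelled control replicate 1 these were 4.98 and 4.51 (adjusted p = 0.0003 and 0.000403).

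The smaller rises of btd and ems rested on fewer fragments. For btd the log2 difference was 2.03 ± 0.40 (adjusted p = 0.0168, and 0.0232 without the library labelled control replicate 1). It no longer passed when control replicate 3 (adjusted p = 0.0504), CtBP-treated replicate 1 (0.072) or CtBP-treated replicate 2 (0.0788) was left out. For ems it was 1.57 ± 0.32 (adjusted p = 0.0202, and 0.0299 without the library labelled control replicate 1). The ems call ended when control replicate 2 (adjusted p = 0.0565) or 3 (0.0536) or CtBP-treated replicate 1 (0.0756) or 2 (0.0855) was left out, and in a fit of these 2 groups alone (0.0601). In the main fit ems thus passed against control with all 3 targets and not with ph and E(z) alone. In fits of 2 groups alone the reverse held (adjusted p = 0.0601 and 0.0465). The difference between the treated groups did not pass.

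Of the detected genes, oc and cad varied together over the libraries. In the treated libraries ems followed oc less closely than cad did. The level of ems was highest in CtBP-treated replicate 1, at 1.76 FPKM, where oc held 20.0. In ph+E(z) replicate 3 ems held 0.671 FPKM, where oc held 36.0. Among treated libraries, both ems and oc were lowest in CtBP-treated replicate 3. The ratio of oc to cad in FPKM was 0.142, 0.149 and 0.163 in the control libraries, 0.651, 0.699 and 0.653 with ph+E(z) RNAi and 0.679, 0.801 and 0.632 in the CtBP-treated libraries. Within the 6 treated libraries the ratio thus stayed between 0.632 and 0.801, while the FPKM of oc itself ran from 13.4 to 36.3. The control ratios rest on only 3, 7 and 3 fragments of oc, so their closeness does not measure their precision. Likeness over the 9 libraries was read by Pearson correlation of log2(FPKM + 0.5), a description only since the libraries form groups. The ranking covers named tested genes only, so an unnamed gene (CG or CR symbol) could be more alike. Among the named genes, cad was the most like oc and oc the most like cad (r = 0.997). Next for oc were drm (0.997), an odd-skipped family zinc finger gene, and rib (0.995), a BTB domain gene of tracheal development. Next for cad were capu (0.995), an actin nucleator gene of the formin family, and dac (0.992), a retinal determination gene. The named genes most like btd were Toll-7 (0.984), alpha-Est8 (0.978) and opa (0.978), and those most like ems were C3G (0.980), Idgf2 (0.976) and Rab6 (0.974).

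**Figure D4:**
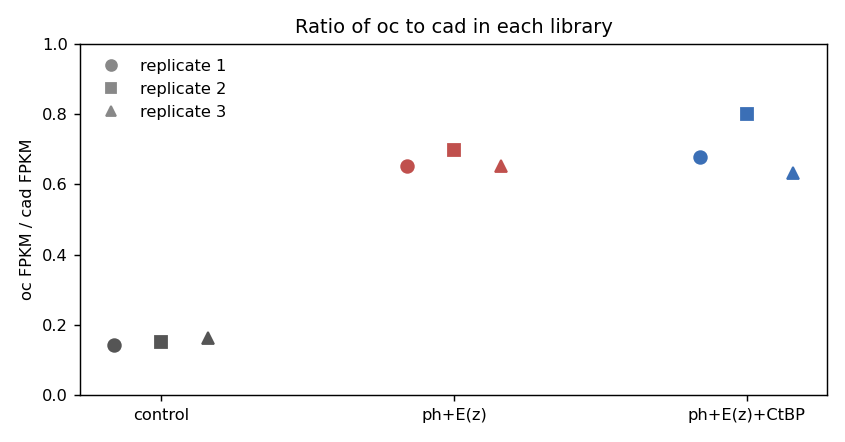
Ratio of oc FPKM to cad FPKM (y axis, linear from 0) in each library, by group, with the replicate number shown by the marker. The 6 treated libraries lie between 0.632 and 0.801 and the control libraries between 0.142 and 0.163. Control values rest on only 3, 7 and 3 fragments of oc.

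The nearest protein-coding genes on each side of the 10 genes, and the one overlapping Kr, were also read. Of 19 such genes in the table, 8 were tested, and none was called with ph+E(z) RNAi. The neighbours of cad, dia at a gap of 2678 bases and the proteasome maturation gene Pomp at 4521 bases, differed by 0.16 (adjusted p = 0.41) and -0.27 (adjusted p = 0.587). Those of oc, the chromatin assembly gene Caf1-180 at 23855 bases and Rubicon (CG12772 in the deposited table) at 26382 bases, differed by 0.55 (adjusted p = 0.474) and 0.16 (adjusted p = 0.623). The rise of oc and cad was therefore not shared by the genes beside them at the tested threshold. E5, a homeobox gene 26937 bases from ems and its close relative, was listed at 0 in all control libraries and measured 0.411, 0.476 and 0.397 FPKM with ph+E(z) RNAi. With all 3 targets E5 measured 0.730, 0.172 and 0 FPKM, so that its groups overlapped there. Sp1, the relative of btd 32090 bases from it, reached at most 0.0752 FPKM in any library. When CtBP RNAi was added, the single neighbour called was CG1090, 13237 bases from hkb, which fell by 1.68 on the log2 scale (adjusted p = 0.00426), from 4.40 ± 0.54 FPKM (SD, n = 3) to 1.04 ± 0.28 (n = 3).

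Around these genes in the segmentation network, 24 partner genes in the table were examined, among them maternal factors, the Torso receptor and its ligand, other head genes and relatives of the gap genes. With ph+E(z) RNAi 3 of 16 tested rose, 0 fell and 13 were not called. The median log2 difference of the 16 was 0.57, against -0.00 over all tested genes, but it was 0.10 without the library labelled control replicate 1. In all, 4 of the 16 lay under 0.5 FPKM in every control library, the 3 that rose among them, so that the minimum for testing fixed the direction of these 3 calls. The POU domain genes nub and pdm2, which act like gap genes in the trunk, rose by 2.1 ± 0.24 (adjusted p = 0.0028) and 2.15 ± 0.23 (adjusted p = 0.0022). Optix, a homeobox gene of the head and eye, went from 0.0473, 0 and 0.182 FPKM in the control libraries to 2.93, 10.8 and 16.8, a log2 difference of 3.94 ± 0.54 (adjusted p = 0.00613). These 3 calls held when any 1 library was left out. The maternal gene bcd (0.611 ± 0.151 FPKM, against 0.852 ± 0.501 in control cells) and the receptor gene tor (4.36 ± 1.04, against 5.53 ± 2.27) were measured in control cells and not called.

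With CtBP RNAi added, 1 of the 16 fell and 0 rose. Without the library labelled control replicate 1, 4 fell and 1 rose. The 1 that fell in the main fit was Optix, which went to 0.935, 0.946 and 0.395 FPKM, a log2 difference of -2.83 ± 0.54 (adjusted p = 0.0265). Leaving out ph+E(z) replicate 2 or 3, or any 1 CtBP-treated library, ended that call, with adjusted p up to 0.125. Against control, nub and pdm2 remained called higher with all 3 targets, at 1.30 ± 0.24 (adjusted p = 0.0133) and 1.19 ± 0.23 (adjusted p = 0.0159), and Optix did not pass (adjusted p = 0.222). Both calls ended when CtBP-treated replicate 1 or 2 was left out (adjusted p up to 0.0735).

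Of 16 pair-rule and segment polarity genes, the layer that gap genes control in the embryo, 11 were below the minimum for testing. With ph+E(z) RNAi 2 of the 5 tested rose, 0 fell and 3 were not called. Without the library labelled control replicate 1, 1 rose and 1 fell. The 2 that rose in the main fit, opa and gsb-n, lay under 0.5 FPKM in every control library. They passed the minimum only through treated libraries, which fixed their direction. The pair-rule gene opa was listed at 0 in the control libraries and reached 0.821, 1.31 and 1.03 FPKM (adjusted p = 0.0119, and up to 0.0694 on leaving out ph+E(z) replicate 2 or 3). The Pax family gene gsb-n rose by 0.95 ± 0.21 (adjusted p = 0.0431) and fell by 0.96 once CtBP was also targeted (adjusted p = 0.0431). The rise of gsb-n was not called when any 1 library was left out (adjusted p from 0.0515 to 0.177), and its fall only without the library labelled control replicate 1. With all 3 targets against control, opa alone was called higher of the 5, by 1.16 ± 0.25 (adjusted p = 0.0261), a call that held in 4 of 9 fits with 1 library left out. It ended on leaving out CtBP-treated replicate 1 or 2, ph+E(z) replicate 3, or either of control replicates 2 and 3 (adjusted p up to 0.11). The median log2 difference of the 5 was 0.95 with ph+E(z) RNAi and 0.68 for all 3 targets against control, but 0.28 and 0.24 without the library labelled control replicate 1. It was -0.04 for the addition of CtBP RNAi.

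Of 12 genes of the Torso and Ras pathway, which activates tll and hkb at the embryonic poles, 11 were tested. The repressor gene cic of this list is also counted among the partners. None was called with ph+E(z) RNAi or with the addition of CtBP RNAi by limma (unadjusted p below 0.05 in 1529 and 1288 of the 8853 tested genes). The addition of CtBP RNAi gave 3 higher calls in this list without the library labelled control replicate 1. With all 3 targets against control 2 of the 11 rose, the adaptor gene drk by 1.21 ± 0.22 (adjusted p = 0.0119) and the phosphatase gene csw by 1.06 ± 0.22 (adjusted p = 0.0196). Both calls ended on leaving out CtBP-treated replicate 1 or 2 (adjusted p up to 0.0849). Leaving out the library labelled control replicate 1 gave 4 higher calls in that comparison. The MAP kinase gene rl of this list was the 1 not tested, being listed at 0 in all libraries.

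**Figure D5:**
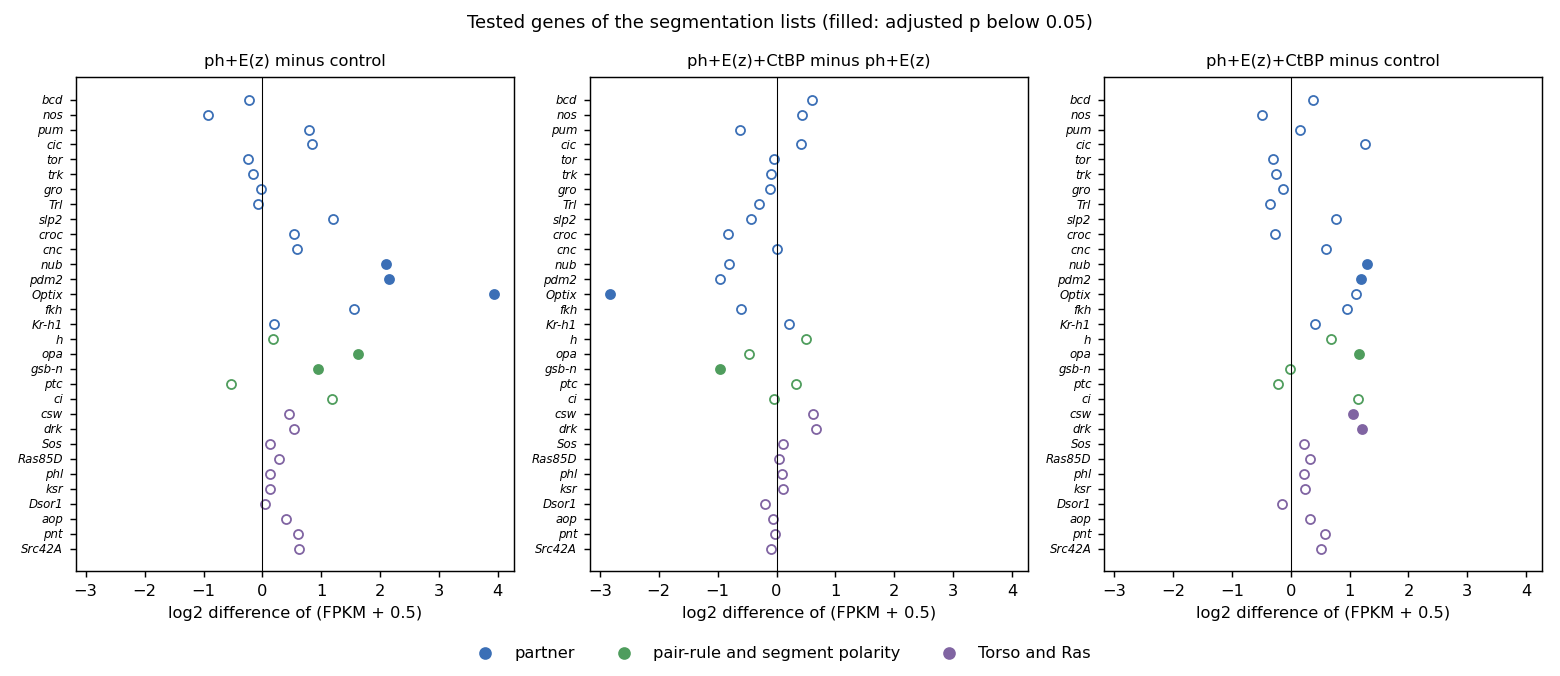
Log2 difference of (FPKM + 0.5) (x axis) of each tested gene of the partner (blue), pair-rule and segment polarity (green) and Torso and Ras (purple) lists in the 3 comparisons, with filled points for an adjusted p below 0.05 and cic, which is on both the partner and Torso lists, drawn in blue. Optix, nub and pdm2 stand farthest to the right with ph+E(z) RNAi, and Optix falls when CtBP RNAi is added.

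Markers of other cell types were read beside these changes. The summed FPKM of the hemocyte markers ran from 344 to 704 in the control libraries, from 711 to 840 with ph+E(z) RNAi and from 462 to 484 in the CtBP-treated libraries. Of 10 hemocyte markers 1 rose and 1 fell with ph+E(z) RNAi (0 to 2 rose and 0 to 2 fell with 1 library left out). When CtBP RNAi was added 5 fell, a count of 3 to 7 with 1 library left out and of 7 without the library labelled control replicate 1. With all 3 targets against control 4 fell, and 7 without that library. Of 7 crystal cell and lamellocyte symbols listed 3 were found, lz, peb and proPO-A1, named here after their values were seen. Not found by symbol were atilla and PPO3. The 2 tested, lz and peb, rose in each comparison with control. With ph+E(z) RNAi 1 or 2 of them rose when 1 library was left out. Both lay under 0.5 FPKM in every control library and passed the minimum only through treated libraries, which fixed the direction of these calls. The third, proPO-A1, was below the minimum, at 0, 0.0502 and 0 FPKM in the control libraries. It held 0.0526, 0.711 and 0.204 FPKM with ph+E(z) RNAi and 0.156, 0 and 0 in the CtBP-treated libraries. Summed FPKM of the 3 genes was 0.549 to 0.742 in the control libraries, 3.76 to 7.63 with ph+E(z) RNAi and 7.20 to 11.4 in the CtBP-treated libraries. None of 3 tested neuron and 4 tested germline markers was called in any comparison. Of 2 tested muscle markers 1 was called higher with all 3 targets against control, where oc, cad, btd and ems were also called, and none in the other comparisons. It was Mlc2, a muscle myosin light chain gene named here after its values were seen, at 4.25 to 5.12 FPKM in the control and 8.64 to 14.8 in the CtBP-treated libraries, and 1 of the 2 was called there whichever library was left out. Summed neuron markers ran from 7.04 to 24.5 FPKM in the control and from 18.4 to 23.3 in the ph+E(z) libraries. Muscle markers ran from 19.2 to 25.6 and from 31.4 to 34.1 FPKM, and germline markers from 34.3 to 38.7 and from 37.3 to 38.7 FPKM. No fat body or gut marker reached the minimum for testing, and their sum was at most 0.466 FPKM. Among defining markers, the muscle myosin gene Mhc reached at most 0.342 FPKM, and the gut gene alphaTry was listed at 0 in all libraries. The part of other cell types in the results was not tested.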

How the data were processed

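Expression was measured in 9 libraries of Kc167 cells. The authors deposited FPKM values per gene and library, with their group means and q-values (adjusted p-values) of 2 of their comparisons. Per the submitters' processing notes, TopHat2 2.1.0, Bowtie2 2.2.6, Cufflinks, Cuffdiff and R 3.2.3 were used with the dm6 build. Scaling between libraries, strandedness, read numbers and library selection: not given in the sources used here. Gene coordinates are from the Ensembl BDGP6 (dm6) annotation, matched by FlyBase identifier for 13462 of 14797 genes, since the deposited positions differ from it.

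From the deposited FPKM, log2(FPKM + 0.5) was modelled with limma (version 3.58.1, R 4.3.3) in 1 fit of all 3 groups with a mean-variance trend, for the 8853 genes with at least 0.5 FPKM in at least 3 libraries. The adjusted p threshold was 0.05 (Benjamini-Hochberg over all tested genes). The fit was also run on simulated libraries with independent normal noise for each gene, and its outcome is not given here. Such a run cannot show how the fit treats a library that departs across many genes, or near-identical libraries. Genes below the minimum were compared by exact permutation. Fragment numbers are estimates: of 980 low genes alone at their deposited position, 83.8% had values that were whole multiples of a step. The 10 genes and the lists were chosen with earlier results of these data known. Text names all 10 genes, their nearest neighbours, the 3 genes most alike over the libraries (CG and CR numbers left out), up to 4 called genes per segmentation list, and the knockdown targets. Alternatives covered the pseudocount, the minimum, the scaling, the trend, 2-group fits, a replicate block and leaving out each library. After seeing the data, averaging the near-identical libraries, and list medians with each library left out, were added.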

Additional observations from a re-analysis of the deposited data

How the results depend on the processing

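The log2 differences of oc and cad against control kept their direction and their call under all 18 alternatives, in both comparisons with control, with adjusted p up to 0.0106. No alternative called oc, cad, btd or ems for the addition of CtBP RNAi, and the difference of ems there ran from -0.048 to 0.57 with 1 library left out, turning on the loss of CtBP-treated replicate 1 (adjusted p = 0.999). Of the 10 genes, 2 to 4 were called with ph+E(z) RNAi and 2 to 4 with all 3 targets when each library was left out in turn, and 0 for the addition of CtBP RNAi. Genes called among all tested, 347 for ph+E(z) against control, 861 for all 3 targets against control and 329 for the addition of CtBP RNAi, numbered 108 to 602, 298 to 1541 and 89 to 1191 in those fits. Averaging replicates 2 and 3 within the control and within the ph+E(z) group, which leaves fewer samples, gave 40, 231 and 26 genes, and 2 of the 10 genes, oc and cad, in each comparison with control. There btd was at an adjusted p of 0.179 and 0.0827. In the same order, fits of 2 groups gave 210, 378 and 793 genes, and no minimum on FPKM gave 213 genes for ph+E(z) against control. The cause of the other moves was not tested.

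The replicate numbers are not known to pair the libraries: same-numbered libraries deviated together with r from -0.14 to 0.20, and 4 of 9 libraries correlated best with their own number. With a replicate block, 212 genes were called for ph+E(z) against control, with the same number of the 10 genes called in each comparison (3, 0 and 4). Log2 differences of genes below the minimum depended on the pseudocount, as for Kr with ph+E(z) RNAi at 2.40 with 0.1 FPKM and 0.53 with 1 FPKM, against 0.91. Depth limits all statements on gt, kni, hb and hkb, which had at most 3 fragments in any library.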
